A study of Mus musculus with 12 samples.

Results

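The genes described here are 8 growth and oncofetal regulators, the Myc family genes Myc and Mycn, the HMGA genes Hmga1 and Hmga2, and the RNA-binding protein genes Igf2bp1, Igf2bp2, Igf2bp3 and Lin28b. They were taken by symbol from the platform annotation of the arrays. Where a gene had several probe sets, 1 was chosen by its level averaged over all 12 arrays, the highest being taken, so that average is a description only, and no difference between cultures or lines entered the choice of probe set. For 6 of the 8 genes the annotation used here named a probe set, as it did for 18194 genes in all, and together these 6 had 19 probe sets. It listed no probe set under Hmga1 or Igf2bp2, which were not analysed here. A level of at least 5 on the log2 scale on at least 2 arrays was required for testing, and 5 of the 6 genes passed it, among 15781 genes tested. Lin28b did not.

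Total RNA of the cell lines 9A1 and 14B3, both of the BMEL (bipotential mouse embryonic liver) kind, was hybridised to Affymetrix mouse 430 2.0 arrays. Both lines were isolated independently from dpc14 liver of embryos of a CBA/J x C57Bl/6J cross, and BMEL lines are immortalised epithelial cells that can be steered towards hepatocytes or bile duct cells. Each line was grown in basal culture, as aggregates for 1 day and as aggregates for 5 days, with 2 biological replicates of each of the 6 combinations. All arrays thus share the strain cross and the embryonic source, each line is a single isolate, and no primary liver is among them.

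Myc and Mycn encode basic helix-loop-helix transcription factors that pair with Max, bind the E-box CACGTG and raise genes of ribosome production, nucleotide synthesis and cell growth, while Mnt and the Mxd proteins compete for Max. HMGA proteins are small chromatin proteins that bind AT-rich DNA through AT-hooks, and Hmga2 is high in embryonic tissues and tumours and nearly silent in most adult tissues. The IGF2BP proteins bind and protect mRNAs, including those of Myc, Igf2 and Actb, and LIN28B blocks the maturation of let-7, the microRNA family that represses Hmga2, Lin28b, Igf2bp1 and other growth genes. In liver these genes are known for their activity in the fetal organ and their return in hepatocellular carcinoma.

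The 250 bases before the transcription start are shown for the 2 members with the largest falls between 1 and 5 days and for Igf2bp3, whose window carries the E-box that Myc binds. They come from RefSeq (GRCm38.p6), whose promoter table held 6 of the 8 genes and none for Myc or Igf2bp1, and all 3 lie on the minus strand. Capitals mark motif letters found by search on both strands. Coordinates are chr12:12941837-12942086 for Mycn, chr10:120476470-120476719 for Hmga2 and chr6:49214955-49215204 for Igf2bp3.
Mycn: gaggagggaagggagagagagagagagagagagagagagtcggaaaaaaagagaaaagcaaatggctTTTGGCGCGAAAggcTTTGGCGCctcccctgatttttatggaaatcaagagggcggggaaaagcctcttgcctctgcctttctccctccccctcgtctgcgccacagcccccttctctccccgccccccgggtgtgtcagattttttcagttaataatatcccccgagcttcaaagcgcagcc
Hmga2: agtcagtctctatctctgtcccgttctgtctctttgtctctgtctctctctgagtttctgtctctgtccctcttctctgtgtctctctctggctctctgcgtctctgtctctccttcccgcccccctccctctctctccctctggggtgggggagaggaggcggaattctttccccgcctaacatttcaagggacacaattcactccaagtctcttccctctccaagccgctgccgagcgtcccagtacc
Igf2bp3: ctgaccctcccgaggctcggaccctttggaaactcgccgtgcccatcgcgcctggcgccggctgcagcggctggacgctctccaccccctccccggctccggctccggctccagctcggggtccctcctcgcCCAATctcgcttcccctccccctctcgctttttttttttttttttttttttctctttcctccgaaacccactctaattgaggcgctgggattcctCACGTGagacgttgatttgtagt

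The search covered the E-box CACGTG, the CCAAT box, the GC box GGGCGG (left in lower case), the TATA box TATAAA, and the forms TTTGGCGC and also TTTCGCGC of the E2F site. The Mycn window holds TTTGGCGC at 183 and at 168 bases before the start and TTTCGCGC on the other strand at 179, where it overlaps the first of them. TTTGGCGC occurs in 0.417% and TTTCGCGC in 0.256% of 32851 windows of the same length in the table. The Hmga2 window holds none of the capitalised motifs and 1 GC box. The Igf2bp3 window holds CACGTG at 23 and CCAAT at 118 bases before the start, and CACGTG occurs in 6.02% and CCAAT in 33.85% of all windows. Lin28b has both motifs too, at 49 and 128 bases. The window of Igf2bp3 and that of Lin28b, at chr10:45470202-45470451, lie inside the annotated genes. These genes reach chr6:49215469 and chr10:45486314, so both windows precede an internal start and not the outermost one. All motifs given are matches of letters and say nothing of binding in these cells.

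The let-7 family defines one of the gene lists described further on, and 9 mature mouse sequences in RefSeq share its seed, bases 2 to 8 counted from the 5′ end, given in capitals for 3 of them. Mature let-7 levels were not analysed here.
mmu-let-7a-5p: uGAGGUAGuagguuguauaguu
mmu-let-7d-5p: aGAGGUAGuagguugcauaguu
mmu-let-7i-5p: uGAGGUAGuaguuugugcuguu

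Levels are deposited log2 values from RMA, which brings the probe intensities of every array to the same distribution before summarising them per probe set. The probe set values still differed in spread between arrays, as given below. Differences are log2 differences with the standard error (SE) of limma, over 4 arrays per culture unless a line is named. A gene is called when its p-value, adjusted over the 15781 genes by the Benjamini-Hochberg method, lies under 0.05. Array medians ran from 6.09 to 6.24, and precision is limited by how few arrays there are. Replicates differed most in basal 9A1 and day 1 9A1, with correlations over all probe sets of 0.952 and 0.949 against 0.988 to 0.996 in the other 4 groups. Such a correlation does not say which of the 2 arrays deviates. On basal 9A1 replicate 1 the hepatocyte marker list had a mean of 10.9 against 7.41 to 7.93 on the other basal arrays, its member Alb stood at 13.1 against 5.57 to 6.86, and the proliferation list had its lowest basal mean at 10.4. Day 1 9A1 replicate 2 had the smallest spread of values, an SD of 2.13 against 2.25 to 2.33. Among the day 1 arrays Apoa1 was low on 9A1 replicate 1, at 9.19 against 12.3 to 12.5. Alb was low on 9A1 replicate 2, at 7.39 against 9.58 to 9.99. Basal 9A1 replicate 1 and day 1 9A1 replicate 2 are named below as the arrays that stood apart. For day 1 this choice of replicate is not settled. Both arrays were kept, and calls of the members that change without them are given beside the results. Leaving out an array leaves 1 in its group, so the spread then comes from the other groups. Of 4 bile duct and epithelial markers, Krt19 was between 13.6 and 14.0 on every array, while Krt7 ran from 9.61 to 12.7, Sox9 from 6.30 to 9.24 and Epcam from 6.86 to 13.2, lowest on 3 of the 4 basal arrays. Markers of other cell types differed among themselves. Ptprc and Hba-a1 (blood), Tek (endothelium) and Lrat (stellate cells) stayed under 5 on every array, whereas Cd68 ran from 5.85 to 8.13, Spi1 from 5.76 to 5.93, Kdr from 5.76 to 6.97, Des from 6.78 to 7.33 and Acta2 from 6.56 to 6.93. The endothelial marker Cdh5 was highest on basal 9A1 replicate 1, at 7.65.

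After 1 day as aggregates 1 of the 5 tested genes was called, Myc, which was lower; 14% of all tested genes were called in this comparison, 8.8% lower and 5.25% higher (1388 and 829 genes, or 1391 and 1315 with quantile normalisation). After 5 days 3 of 5 were lower than in basal culture, Myc, Mycn and Hmga2, in a comparison that called 35.4% of all genes, 18.5% lower and 16.9% higher. Between 1 and 5 days Mycn and Hmga2 were lower, 2 of 5, against 21.7% of all genes called, 10% lower and 11.7% higher. No tested member rose in these 3 comparisons. The comparisons share arrays pairwise, so their calls are not independent of each other. The Igf2bp genes were not called in any of them with the chosen probe sets.

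**Figure D1:**
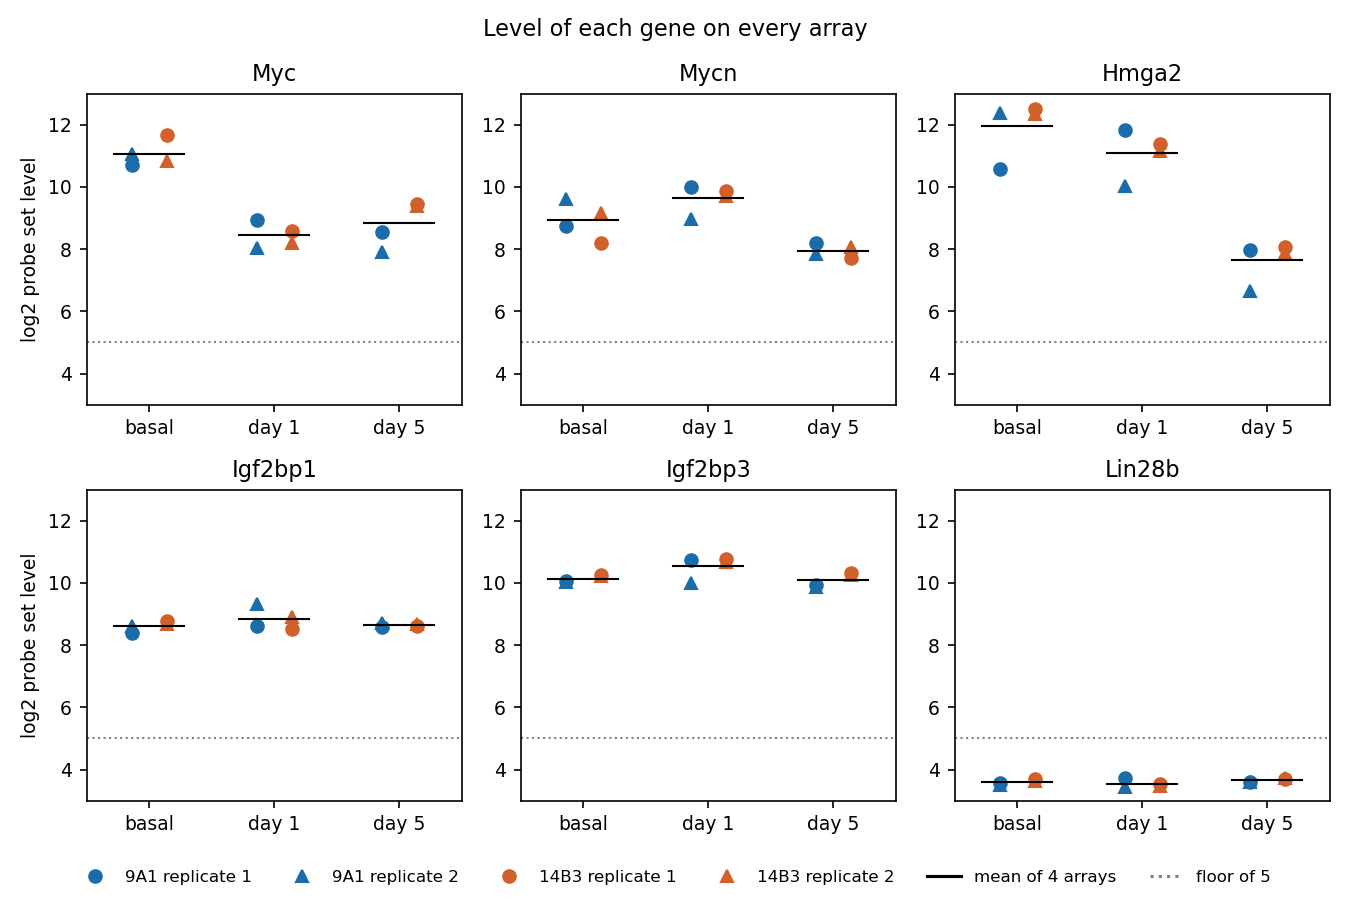
Log2 probe set level (y axis) of the 6 genes with a probe set on each of the 12 arrays, by culture (x axis); colour gives the line, symbol the replicate, the bar the mean of 4 arrays and the dotted line the floor of 5. Myc lies between 10.71 and 11.66 in basal culture and at most at 9.46 afterwards, Hmga2 stays at 10.02 or more until day 1 and lies between 6.67 and 8.06 on day 5, and Lin28b is under the floor on all 12 arrays.

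Myc, the family member that most proliferating cells use, dropped early and stayed low. In basal culture it stood at 10.71 and 11.05 on the 9A1 arrays and at 11.66 and 10.84 on the 14B3 arrays. After 1 day it stood at 8.94 and 8.02 in 9A1 and at 8.58 and 8.20 in 14B3. After 5 days it stood at 8.55 and 7.92 in 9A1 and at 9.46 and 9.38 in 14B3. Every aggregate array lay below every basal array, and the day 1 and day 5 arrays overlapped. Myc fell by 2.63 ± 0.27 at 1 day, a 6.18-fold difference (adjusted p = 0.000584), and 40 of the 15781 genes fell further. At 5 days it was 2.24 ± 0.27 below basal culture, a 4.72-fold difference (adjusted p = 0.000343), and 321 genes fell further. The step from 1 to 5 days was 0.39 ± 0.27 and was not called (adjusted p = 0.375). In bulk RNA fewer cells with the transcript and less transcript per cell cannot be told apart, and a change in total RNA per cell is removed by the normalisation. Both falls were called without any 1 array, with values of -2.86 to -2.40 at 1 day and -2.44 to -2.03 at 5 days.

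Within the lines, Myc fell by 2.40 in 9A1 (adjusted p = 0.0178) and by 2.86 in 14B3 (adjusted p = 0.00434) at 1 day, comparisons in which 1.88% and 8.57% of all genes were called. Of all genes 1.53% and 5.17% were called lower. The 9A1 call was lost without day 1 9A1 replicate 2 (-1.94, adjusted p = 0.0716), with array weights (adjusted p = 0.712) and with a fit of only the groups compared (adjusted p = 0.599). The 14B3 call was lost when replicate 1 of basal 14B3 (-2.44, adjusted p = 0.0588) or replicate 2 of day 1 14B3 (-2.67, adjusted p = 0.0629) was left out. At 5 days Myc was lower in both lines, with -2.65 in 9A1 (adjusted p = 0.00264) and -1.83 in 14B3 (adjusted p = 0.00792), where 15.2% and 26.7% of all genes were called, 8.54% and 14.1% lower. The 9A1 call was lost with only the groups compared (adjusted p = 0.105). The 14B3 call was lost when replicate 1 of basal 14B3 (-1.42, adjusted p = 0.0774) or replicate 2 of day 5 14B3 (-1.79, adjusted p = 0.0565) was left out. From day 1 to day 5 Myc differed by -0.25 ± 0.38 in 9A1 and by 1.03 ± 0.38 in 14B3, where the day 5 arrays lay above both day 1 arrays, and neither step was called (adjusted p = 0.757 and 0.148). The 14B3 step was called with array weights (adjusted p = 0.0160) and with only the groups compared (adjusted p = 0.000448). Both settings, and leaving out both arrays that stood apart, kept the value at 1.03 and changed only the estimate of the spread. At 5 days both 14B3 arrays lay above both 9A1 arrays, a difference of -1.19 ± 0.38 for 9A1 against 14B3 that was not called (adjusted p = 0.577).

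Mycn, the relative used mainly by embryonic and neural progenitors, followed another course, highest after 1 day. In basal culture it stood at 8.74 and 9.60 in 9A1 and at 8.19 and 9.16 in 14B3. After 1 day it stood at 10.01 and 8.97 in 9A1 and at 9.86 and 9.70 in 14B3. After 5 days it stood at 8.20 and 7.83 in 9A1 and at 7.71 and 8.07 in 14B3. All day 5 arrays lay below all day 1 arrays, while basal culture overlapped with both. The difference at 1 day was 0.71 ± 0.31 and was not called (adjusted p = 0.177), and it was called without basal 9A1 replicate 1 and day 1 9A1 replicate 2 together (0.75, adjusted p = 0.0491). In 14B3 alone, where both day 1 arrays lay above both basal arrays, it was 1.10 (adjusted p = 0.169). This was called with array weights (adjusted p = 0.0345) and with only the groups compared (adjusted p = 0.00584). The value stayed at 1.10 in both settings and without those 2 arrays, so only the estimate of the spread changed. Mycn then fell by 1.68 ± 0.31 until day 5, a 3.21-fold difference (adjusted p = 0.00531), and this was called without any 1 array (-1.94 to -1.43). Within the lines this step was -1.48 in 9A1 (adjusted p = 0.0650) and -1.89 in 14B3 (adjusted p = 0.0359), where 9.89% and 6.91% of all genes were called, and neither result was firm. The 14B3 call was lost without any 1 of the 4 arrays compared (adjusted p = 0.162 to 0.234) and without either day 5 9A1 array (adjusted p = 0.0534). It was also lost with the mean of probe sets (-0.88, adjusted p = 0.0543), the second probe set (-0.11, adjusted p = 0.901) and median centring (adjusted p = 0.0504). In 9A1 the step was called in 6 other settings, among them the mean of probe sets (-0.94, adjusted p = 0.0360) and quantile normalisation (-1.61, adjusted p = 0.0261). The rest left 1 array in a 9A1 group, with -1.995 without day 1 9A1 replicate 2.

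At 5 days Mycn lay 0.97 ± 0.31 below basal culture, a 1.96-fold difference close to the threshold (adjusted p = 0.0345). This call depended on most arrays. It was lost without basal 9A1 replicate 2 (-0.76, adjusted p = 0.104), without basal 14B3 replicate 2 (-0.73, adjusted p = 0.130), without day 5 9A1 replicate 1 (-1.07, adjusted p = 0.0568) or replicate 2 (-0.88, adjusted p = 0.112), and without day 5 14B3 replicate 1 (-0.88, adjusted p = 0.114) or replicate 2 (-1.06, adjusted p = 0.0625). Leaving out either 14B3 array of day 1, which only changes the shared spread, gave an adjusted p of 0.0565. Neither line alone passed the threshold, with -1.16 in 9A1 (adjusted p = 0.109) and -0.79 in 14B3 (adjusted p = 0.239). Without basal 9A1 replicate 1 the 9A1 difference was -1.59, from 1 basal array. The 14B3 difference stayed at -0.79 with array weights, which changed only the estimate of the spread, and was then called (adjusted p = 0.0207).

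The 2 other Mycn probe sets did not move as far. The probe set ranked second by mean level, 1425923_at, differed by -0.27 from 1 to 5 days (adjusted p = 0.366) and by -0.02 from basal culture to 5 days (adjusted p = 0.953), with p-values adjusted over all 28748 probe sets tested. It was highest on day 1 9A1 replicate 2 at 8.52 and day 1 14B3 replicate 2 at 8.09, the arrays with the highest medians, and between 7.62 and 7.81 on the other 10. The probe set ranked last, 1425922_a_at, fell by 0.77 from 1 to 5 days (adjusted p = 0.0371) and differed by -0.39 from basal culture at 5 days (adjusted p = 0.234). The fall of Mycn after day 1 was thus called with 2 of 3 probe sets, and the fall against basal culture with 1 of 3.

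Hmga2, the HMGA protein of embryonic and tumour cells, gave the largest change of the 5 genes, at 5 days. In basal culture it stood at 10.58 and 12.38 in 9A1 and at 12.50 and 12.34 in 14B3. After 1 day it stood at 11.83 and 10.02 in 9A1 and at 11.37 and 11.16 in 14B3. After 5 days it stood at 7.97 and 6.67 in 9A1 and at 8.06 and 7.86 in 14B3. Basal and day 1 arrays overlapped, and all 4 day 5 arrays lay below all 8 others. The low arrays among basal and day 1 were basal 9A1 replicate 1 and day 1 9A1 replicate 2, named above as standing apart. Their part in the overlap was not tested beyond leaving them out.

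Against basal culture Hmga2 fell by 4.31 ± 0.49 at 5 days, a 19.8-fold difference (adjusted p = 0.000266), and 19 of the 15781 genes fell further. After day 1 it fell by 3.45 ± 0.49, a 10.96-fold difference (adjusted p = 0.00175), with 5 genes falling further. The difference at 1 day was -0.85 ± 0.49 and was not called (adjusted p = 0.324), and it ran from -1.31, without day 1 9A1 replicate 1, to -0.40, without day 1 9A1 replicate 2. In 14B3 both day 1 arrays lay below both basal arrays, with -1.15 (adjusted p = 0.400). This 14B3 fall was called with array weights (adjusted p = 0.0384) and with only the groups compared (adjusted p = 5.81e-06). Both settings kept the value at -1.15 and changed only the estimate of the spread. Leaving out both arrays that stood apart, which are of 9A1, did the same. In 9A1 the 1 day difference was -0.55, and 0.35 without day 1 9A1 replicate 2. Without 1 array at a time the fall at 5 days ran from -4.76, without basal 9A1 replicate 1, to -3.86, without basal 9A1 replicate 2, and was called each time. The fall from 1 to 5 days ran from -3.91 to -3.00 and was called each time.

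Both lines showed the fall of Hmga2. At 5 days the change from basal culture was -4.16 ± 0.69 in 9A1 (adjusted p = 0.00516) and -4.46 ± 0.69 in 14B3 (adjusted p = 0.00254), and the 9A1 call was lost without day 5 9A1 replicate 2 (-3.51, adjusted p = 0.0505) and with only the groups compared (adjusted p = 0.139). The step after day 1 was -3.60 in 9A1 (adjusted p = 0.0148) and -3.30 in 14B3 (adjusted p = 0.0266), in the comparisons that called 3.76% and 3.14% of all genes lower. The 9A1 call was lost without day 5 9A1 replicate 2 (-2.95, adjusted p = 0.129), with array weights (adjusted p = 0.0623) and with only the groups compared (adjusted p = 0.0523). The 14B3 call was lost without any 1 of the 4 arrays compared, with values of -3.41 to -3.20 and adjusted p of 0.155 to 0.168, and without either basal 14B3 array (adjusted p = 0.0537 and 0.0533). Of the 3 other Hmga2 probe sets, 1450780_s_at fell by 4.14 (adjusted p = 0.000169) and 1450781_at by 4.54 (adjusted p = 0.000229) at 5 days. The last, 1446196_at, lay between 3.90 and 5.85 on all arrays, near the floor, and differed by -0.96 (adjusted p = 0.0968).

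**Figure D2:**
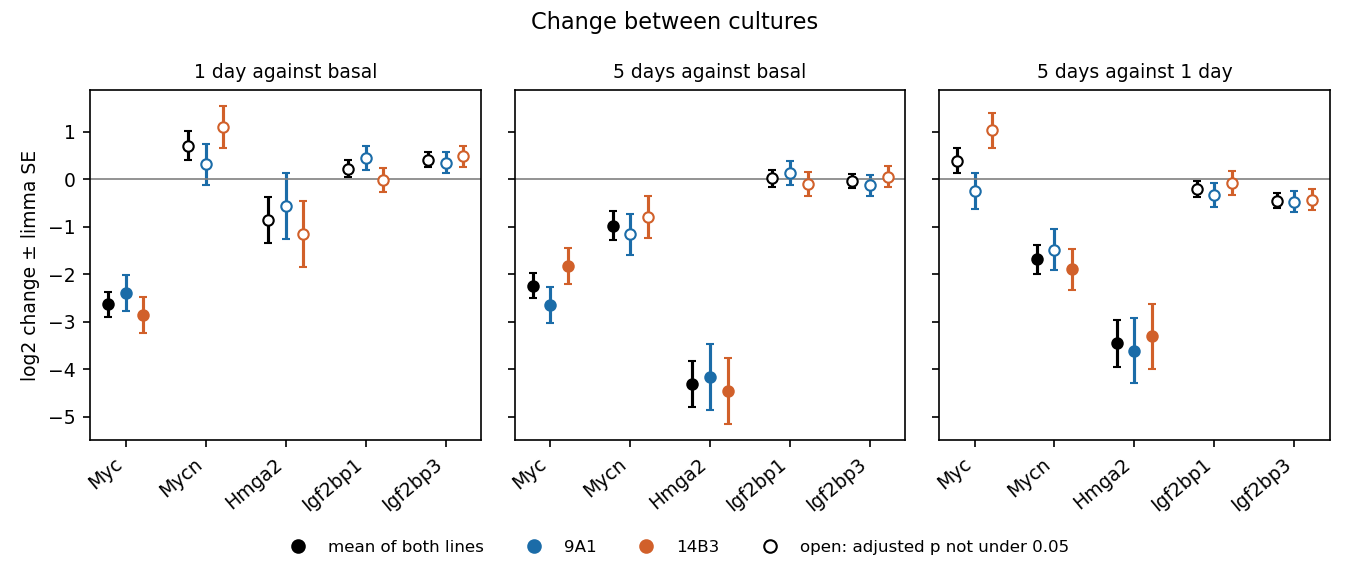
Log2 change (y axis) of the 5 tested genes in 3 comparisons between cultures, as the mean of both lines (black), in 9A1 (blue) and in 14B3 (orange); bars are the limma SE and open circles have an adjusted p of 0.05 or more. Myc moved at 1 day (-2.63), Hmga2 from 1 to 5 days (-3.45) in both lines, and the Igf2bp genes lie within 0.5 of 0 in all 3 panels.

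Igf2bp1, which binds Myc and Actb mRNA and is a fetal protein in liver, was level with its chosen probe set and lower with 2 others. The chosen probe set, 1459825_x_at, ranged from 8.39 to 8.78 in basal culture, from 8.51 to 9.31 after 1 day and from 8.57 to 8.70 after 5 days. Its highest value was on day 1 9A1 replicate 2. The difference was 0.22 ± 0.18 at 1 day (adjusted p = 0.513) and 0.02 ± 0.18 at 5 days (adjusted p = 0.960). In 9A1 the 1 day difference was 0.46 (adjusted p = 0.440). Without day 1 9A1 replicate 1 it was 0.80, with day 1 9A1 replicate 2 as the only day 1 array of 9A1. The suffix _x marks a probe set with probes that may also match other transcripts.

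The Igf2bp1 probe set 1418761_at stood at 8.15 and 9.24 in basal 9A1 and at 9.36 and 9.23 in basal 14B3. After 5 days it stood at 7.70 and 7.68 in 9A1 and at 7.98 and 8.15 in 14B3. Basal 9A1 replicate 1 was the low basal array, by a small margin above all 4 day 5 arrays. This probe set fell by 1.12, a 2.17-fold difference (adjusted p = 0.00512), and 1455223_at fell by 0.65 (adjusted p = 0.0347). The last, 1449210_at, differed by -0.50 (adjusted p = 0.404). The mean of the 4 probe sets was lower at 5 days by 0.56 (adjusted p = 0.0491). The direction for Igf2bp1 thus depends on the probe set, and which of them reports the gene was not tested.

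Igf2bp3, the IGF2BP protein most restricted to fetal and tumour tissue, differed from basal culture by less than the spread between arrays at 5 days and was higher after 1 day with several probe sets. The chosen probe set, 1422610_s_at, stood at 10.05 and 10.01 in basal 9A1 and at 10.24 and 10.22 in basal 14B3. After 1 day it stood at 10.75 and 10.01 in 9A1 and at 10.78 and 10.65 in 14B3. After 5 days it stood at 9.94 and 9.87 in 9A1 and at 10.31 and 10.27 in 14B3. The 3 highest of the 12 values were day 1 arrays, and day 1 9A1 replicate 2, at 10.01, lay just below all 4 basal arrays. The difference was 0.42 ± 0.16 at 1 day (adjusted p = 0.121), -0.03 ± 0.16 at 5 days (adjusted p = 0.916) and -0.45 ± 0.16 from 1 to 5 days (adjusted p = 0.0738).

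Day 1 9A1 replicate 2 was the lowest day 1 array for the chosen probe set of Igf2bp3. Without it the difference was 0.60 at 1 day and -0.63 from 1 to 5 days, and leaving it out had to widen both. Without day 1 9A1 replicate 1 the step from 1 to 5 days was -0.27. In 14B3, where both day 1 arrays lay above both basal arrays, the 1 day difference was 0.48 (adjusted p = 0.243). It was called in 6 other settings. Except with quantile normalisation its value stayed at 0.48 in them, so only the estimate of the spread changed. Without both arrays that stood apart 9A1 kept 1 basal and 1 day 1 array, which differed by 0.73, and the 14B3 value stayed at 0.48. The step after day 1 was then -0.84 in 9A1, from that 1 day 1 array, and -0.43 in 14B3. With all arrays it was -0.47 (adjusted p = 0.235) and -0.43 (adjusted p = 0.316). The Igf2bp3 probe sets 1433731_at, 1433732_x_at and 1422611_s_at, which follow it in mean level, rose at 1 day by 0.50, 0.60 and 0.54 (adjusted p = 0.0366, 0.0210 and 0.0166). On these 3 all 4 day 1 arrays lay above all 4 basal arrays, day 1 9A1 replicate 2 included. The 2 remaining probe sets differed by 0.07 (adjusted p = 0.900) and 0.41 (adjusted p = 0.0931). Called rises were thus seen for 3 of 6 probe sets, in a fit that called 13% of all probe sets at 1 day and 33% at 5 days.

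**Figure D3:**
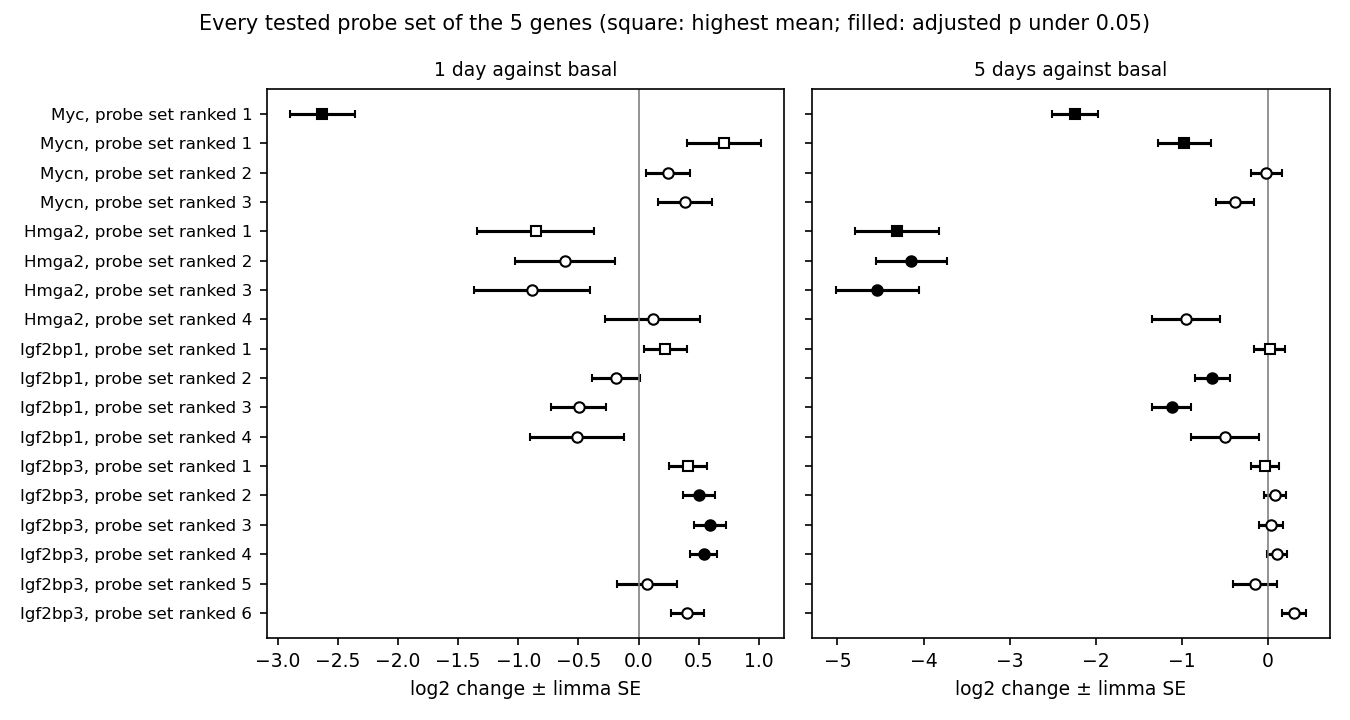
Log2 change with its limma SE (x axis) of each of the 18 tested probe sets of the 5 genes (y axis, ranked by mean level within a gene) after 1 day (left) and 5 days (right) against basal culture; squares are the probe sets with the highest mean and filled symbols have an adjusted p under 0.05 over 28748 probe sets. For Hmga2, 3 of 4 probe sets lie beyond -4 at 5 days, for Igf2bp1 the square lies at 0.02 while 2 others are filled on the lower side, and for Igf2bp3 3 probe sets are filled on the higher side at 1 day only.

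Lin28b, the inhibitor of let-7 maturation, stayed between 3.45 and 3.73 on all 12 arrays. Its mean was 3.60 ± 0.08 in basal culture, 3.55 ± 0.13 after 1 day and 3.66 ± 0.07 after 5 days (SD, n = 4), differences no larger than the spread between arrays. Its single probe set was under 5 on every array, and so was that of its paralog Lin28a. The values carry no detection calls, so they show a level near the bottom of the scale and not an absence of the transcript.

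The order of the levels of each gene over the 3 cultures can be read from the means and SD of 4 arrays. Myc had its highest mean in basal culture, 11.07 ± 0.42, followed by 8.83 ± 0.73 after 5 days and 8.44 ± 0.41 after 1 day, the last 2 not differing beyond their spread. Mycn went from 9.63 ± 0.46 after 1 day to 8.92 ± 0.60 in basal culture and 7.95 ± 0.22 after 5 days, where neighbours overlapped. Hmga2 went from 11.95 ± 0.91 in basal culture to 11.09 ± 0.77 after 1 day, which overlapped, and to 7.64 ± 0.65 after 5 days. Igf2bp1 and Igf2bp3 had their highest means after 1 day, 8.84 ± 0.36 and 10.55 ± 0.36, and the 3 cultures overlapped for both.

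Between the lines no member was called by limma in basal culture or at 5 days, comparisons that called 0.019% and 0.247% of all genes (3 and 39 genes, with 1056 and 736 genes at an unadjusted p under 0.05). Of the 5 members only Myc at 5 days had an unadjusted p under 0.05 in either, and none had one in the 2 interactions. At 1 day limma called 0 of the 15781 genes between the lines, with 827 at an unadjusted p under 0.05. For Igf2bp3 the difference of 9A1 against 14B3 at 1 day was -0.34 (adjusted p = 0.852), and without day 1 9A1 replicate 1 it was -0.71. The latter value rests for 9A1 on day 1 9A1 replicate 2 alone, which was named as standing apart. The difference between the lines in the response, tested as an interaction, called no member and no gene at 1 day (522 genes at an unadjusted p under 0.05) and no member and 0.038% of all genes at 5 days (556 at an unadjusted p under 0.05). For Myc the 5 day response differed by -0.82 between 9A1 and 14B3 (adjusted p = 1.00), for Hmga2 by 0.30 and for Mycn by -0.37. With 2 arrays per group these differences have wide errors, and a like response was not shown.

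Genes known to be raised by Myc were mostly lower in aggregates. Of a list of 25 such genes 19 were lower and 0 higher at 1 day, and 23 were lower and 2 higher at 5 days. The median change was -1.20 at 1 day and -1.91 at 5 days, against 0.03 and 0.01 over all genes tested. Of all genes tested 8.8% were lower and 5.25% higher at 1 day, and 18.5% and 16.9% at 5 days. Cad, which starts pyrimidine synthesis, fell by 2.89 ± 0.41 at 5 days, and Shmt2, the mitochondrial serine hydroxymethyltransferase, fell by 2.87 ± 0.30. The 2 genes that rose at 5 days were the transferrin receptor Tfrc (0.80 ± 0.21) and the lactate dehydrogenase Ldha (0.58 ± 0.12). The call of Tfrc was lost in 3 of 23 other settings, each leaving out 1 array (replicate 2 of basal 14B3, replicate 2 of day 5 9A1, replicate 1 of day 5 14B3), with adjusted p up to 0.0630.

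Among further genes of the list, chosen after their values were seen, Odc1, the first enzyme of polyamine synthesis, fell by 1.62 ± 0.16 at 1 day (adjusted p = 0.00053) and rose by 0.88 ± 0.16 from 1 to 5 days (adjusted p = 0.00535). At 5 days it was still 0.74 below basal culture, a call lost with the mean of its probe sets (-0.39). The nucleolar protein gene Ncl went down in both steps, by 0.62 ± 0.11 at 1 day (adjusted p = 0.00806) and by a further 0.96 ± 0.11 (adjusted p = 0.000827). After day 1, 10 of the 25 list genes fell and 2 rose until day 5, with a median of -0.69 against -0.04 over all genes, while Myc itself was not called. At 1 day 12 list genes were lower without day 1 14B3 replicate 2, and 23 without both arrays that stood apart. After day 1 18 were lower without those arrays, and 6 when either day 1 14B3 array, either day 5 14B3 array or replicate 2 of day 5 9A1 was left out. Of 19 list genes with a promoter window, 5 hold CACGTG (Hspd1, Ldha, Cdk4, Nme1 and Apex1), 26.3% against 7.84% of 12610 tested genes with a window, and this was not tested.

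The partners and antagonists of Myc did not move as a group. Of 17 genes 6 were lower and 0 higher at 1 day, and 4 were lower and 1 higher at 5 days, with medians of -0.15 in both. The shares over all genes were 8.8% lower and 5.25% higher at 1 day, and 18.5% and 16.9% at 5 days. Aurka, a mitotic kinase that stabilises Mycn protein, fell by 4.01 ± 0.27 at 5 days, with -2.06 for the mean of its probe sets. Ruvbl1, a helicase of Myc-bound chromatin complexes, fell by 2.23 ± 0.26. Mlx, the Max-like partner of the glucose-sensing factors, rose by 1.58 ± 0.27. Of the 6 lower genes at 1 day, the count was 2 when replicate 1 of basal 14B3 or replicate 2 of day 1 14B3 was left out, and 3 for the other replicate of either group. At 5 days 3 were higher without basal 9A1 replicate 1.

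Max, the partner Myc needs to bind DNA, was looked at after its values were seen. It fell by 0.96 ± 0.20 at 1 day (adjusted p = 0.0132) and rose by 1.17 ± 0.20 from 1 to 5 days (adjusted p = 0.00369), so that at 5 days it differed from basal culture by 0.21 ± 0.20 (adjusted p = 0.506). The fall of Max was lost in 3 of 23 other settings, with replicate 1 of basal 14B3 left out, with replicate 2 of day 1 14B3 left out and with only the groups compared (adjusted p up to 0.0677). Mxd1, an antagonist of Myc in differentiating cells, was also looked at afterwards and lay 2.03 ± 0.82 above basal culture at 5 days, which was not called (adjusted p = 0.0899). Without basal 9A1 replicate 1 its difference was 3.24, and without basal 9A1 replicate 2 it was 0.81. From 1 to 5 days Mxd1 rose by 2.73 (adjusted p = 0.0437), a call that held in 10 of 23 other settings.

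Other high mobility group genes included 6 that were tested of 9 listed. Of these 3 were lower at 1 day and 4 at 5 days with 0 higher, against 8.8% and 18.5% of all genes lower. Hmgb2, a DNA-bending protein of dividing cells, fell by 2.10 ± 0.18 at 1 day and by 2.74 ± 0.18 at 5 days. Hmgn3, a nucleosome-binding protein, fell by 1.90 ± 0.52 at 5 days, a call lost when replicate 1 of basal 14B3, replicate 1 of day 5 9A1 or replicate 2 of day 5 14B3 was left out (adjusted p up to 0.0741). The median over the 6 genes was -0.79 at 1 day and -1.20 at 5 days. Hmga2 at 5 days, with -4.31, lay further from 0 than each of these 6.

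Genes of let-7 processing were partly lower at 5 days. Of 11 tested genes of 12 listed, 5 were lower and 1 higher, with a median of -0.71, and at 1 day 2 were lower and 1 higher. Among all genes 18.5% were lower and 16.9% higher at 5 days, and 8.8% and 5.25% at 1 day. Syncrip, an RNA-binding protein that aids let-7 processing, fell by 1.62 ± 0.26 at 5 days, and Xpo5, which exports microRNA precursors from the nucleus, by 1.55 ± 0.21. Tut7, an uridyl transferase acting on let-7 precursors, rose by 0.67 ± 0.14. At 1 day the count of lower genes ran from 0, without any of the 4 14B3 arrays compared, to 6, without basal 9A1 replicate 1.

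Known let-7 targets other than the members did not share a direction. Of 16 tested genes of 18 listed, 5 were lower and 1 higher at 5 days with a median of -0.10. At 1 day 2 were lower and 2 higher with a median of -0.03. Over all genes 18.5% were lower and 16.9% higher at 5 days, and 8.8% and 5.25% at 1 day. Cyclin D1 (Ccnd1) fell by 3.19 ± 0.63 and cyclin D2 (Ccnd2), which is also on the list of Myc targets, by 2.26 ± 0.31 at 5 days. Nr6a1, a nuclear receptor of early embryos, rose by 0.61 ± 0.13. At 1 day 6 genes were lower without basal 9A1 replicate 1 and 1 without day 1 14B3 replicate 2. After day 1, when Hmga2 fell, 4 of 16 genes fell and 1 rose, and 2 fell when replicate 1 of day 1 14B3, replicate 2 of day 5 9A1 or either day 5 14B3 array was left out.

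Of mRNAs known to be bound by IGF2BP proteins, 5 of 7 listed were tested. At 5 days 1 fell and 1 rose, against 18.5% of all genes lower and 16.9% higher. Cd44, a hyaluronan receptor, fell by 2.17 ± 0.49 at 5 days. Btrc, a substrate adaptor of a ubiquitin ligase, rose by 0.36 ± 0.12, a call that held in 10 of 23 other settings. Igf2, the growth factor mRNA that named the family, differed by 0.17 ± 0.43 at 5 days (adjusted p = 0.845).

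**Figure D4:**
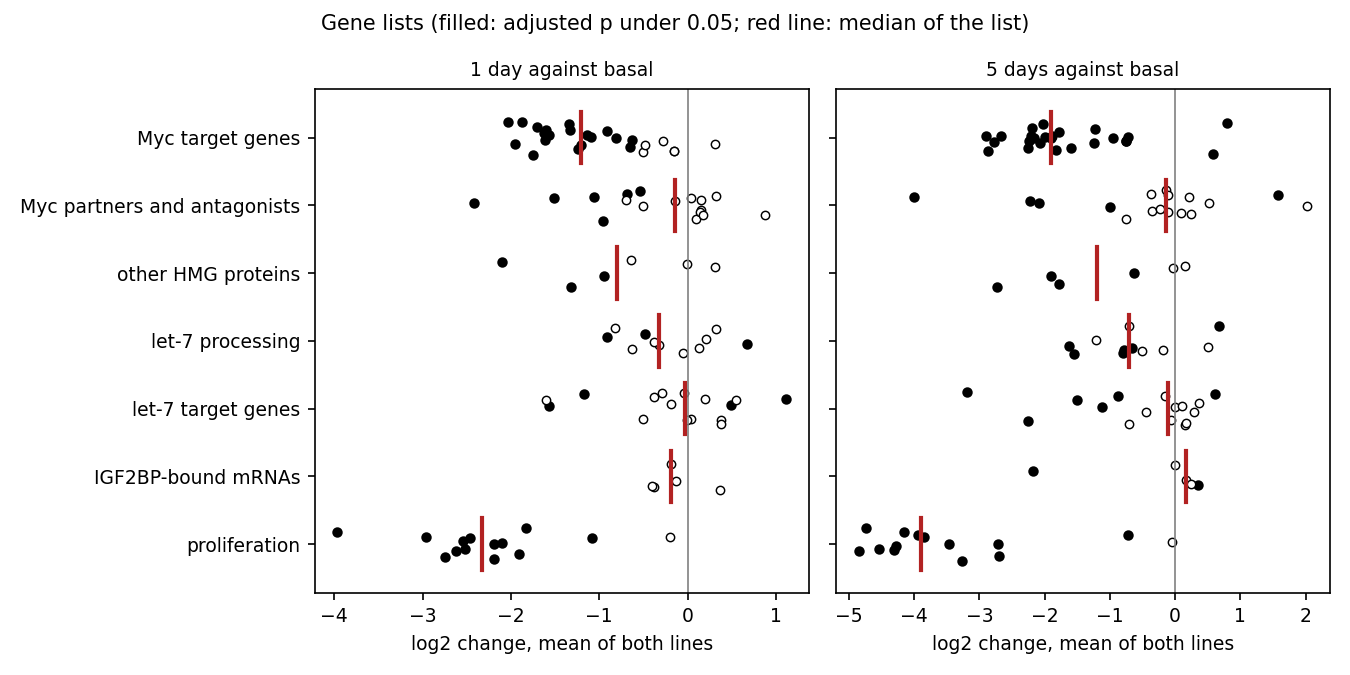
Log2 change (x axis, mean of both lines) of every tested gene of 7 gene lists (y axis) after 1 day (left) and 5 days (right) against basal culture; filled circles have an adjusted p under 0.05 and the red line is the list's median. Myc target genes lie mostly below 0 with medians of -1.20 and -1.91 and proliferation genes with medians of -2.33 and -3.89, while let-7 targets are spread around -0.03 and -0.10.

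Proliferation genes were mostly lower in aggregates, and only some members went with them. Myc was lower at 1 day and Myc, Mycn and Hmga2 at 5 days, while the chosen probe sets of Igf2bp1 and Igf2bp3 were not called. The part of proliferation in these falls was not tested. Of 14 tested proliferation genes of 15 listed, 13 were lower at 1 day and 13 at 5 days, against 8.8% and 18.5% of all genes. The list had 0 higher in both, and medians of -2.33 and -3.89. Bub1, a kinase of the spindle checkpoint, fell by 4.85 ± 0.29 at 5 days, and Rrm2, a subunit of ribonucleotide reductase, by 4.73 ± 0.51. After day 1, 9 were lower and 1 was higher until day 5, and the lower ones were 3 when either day 1 14B3 array or replicate 2 of day 5 14B3 was left out and 5 without day 5 9A1 replicate 2. Pcna, the list gene that rose after day 1, was looked at after its values were seen. It fell by 1.08 at 1 day (adjusted p = 0.000519) and rose by 1.03 until day 5 (adjusted p = 0.000453). At 5 days Pcna differed from basal culture by -0.05 (adjusted p = 0.802). The mean level of the list ran from 10.4 to 11.4 on the basal arrays, from 8.58 to 9.03 after 1 day and from 6.62 to 8.21 after 5 days. E2f1, whose protein binds sites of the E2F form found in the Mycn window, was looked at after its values were seen and differed by -0.19 ± 0.21 at 1 day and fell by 0.72 ± 0.21 at 5 days (adjusted p = 0.0238), a call lost without 5 of the 12 arrays in turn.

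Hepatocyte and absorptive gut markers also moved with the cultures. Of 8 tested hepatocyte markers 3 were higher at 1 day and 7 at 5 days, with 0 lower. Of 4 absorptive gut markers 1 and 4 were higher with 0 lower. The shares of all genes called higher were 5.25% and 16.9%. The hepatocyte list had a mean level of 7.41 to 10.9 in basal culture, 9.49 to 9.89 after 1 day and 11.4 to 12.4 after 5 days. Of 4 tested cholangiocyte markers 1 rose and 1 fell at 5 days. The hepatoblast list had 4 tested genes (Afp, Dlk1, Gpc3 and Igf2) and 0 called at 1 day, at 5 days or between them. Its median change at 5 days was 0.17. Of the blood, endothelial and stellate lists 3, 3 and 4 genes were tested, and 1 was called, Cd68, which fell at 5 days. The part of these markers in the results on the members was not tested.

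**Figure D5:**
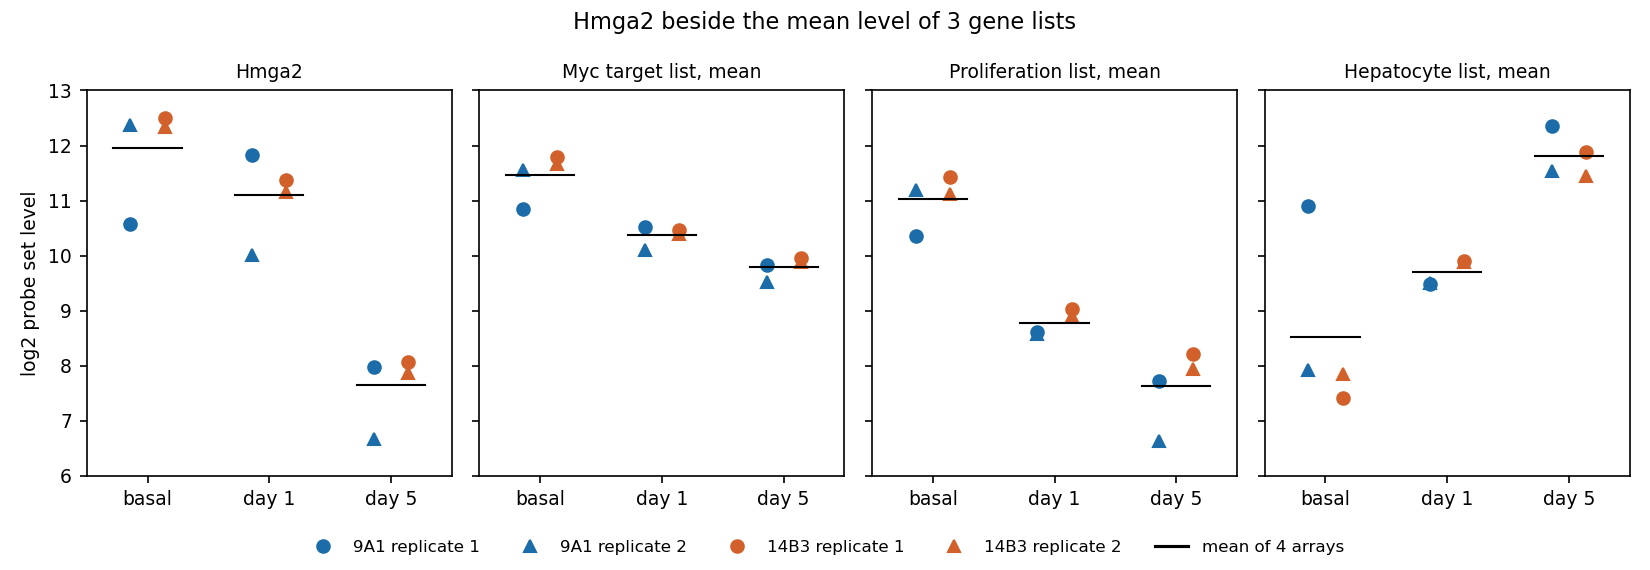
Log2 level of Hmga2 and mean log2 level of the Myc target, proliferation and hepatocyte lists (y axis) on each of the 12 arrays by culture (x axis); colour gives the line, symbol the replicate and the bar the mean of 4 arrays. Basal 9A1 replicate 1 is the lowest basal array for Hmga2 (10.6), the Myc targets (10.8) and proliferation (10.4) and the highest for the hepatocyte list (10.9). Day 5 9A1 replicate 2 is the lowest array for Hmga2 (6.67), the Myc targets (9.52) and proliferation (6.62).

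The genes whose levels went most closely with each member over the 12 arrays are given as a description, with no test, since the 12 arrays share the 3 cultures. For Myc they were Fancb (Pearson r = 0.980), Mcm8 (0.978) and Trmt11 (0.972). For Mycn they were Marcks (0.950), Zfp516 (0.949) and Smad3 (0.946). For Hmga2 they were Eif3e (0.994), Cdc16 (0.991) and Rpl11 (0.989). For Igf2bp1 they were E2f5 (0.975), Bcan (0.974) and 2610027F03Rik (0.973), and for Igf2bp3 Dync2li1 (0.982), Usp19 (0.956) and Atp9b (0.948).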

How the data were processed

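The authors deposited log2 levels per probe set; the submitters' processing notes name R 2.3.1 and RMA. The table holds 45101 probe sets, of which 34945 had 1 gene in the platform annotation, 932 several, 9160 none and 64 were controls; only the first kind was used. All 12 arrays entered 1 limma model (limma 3.58.1, R 4.3.3, statmod 1.5.0) with a mean for each of 6 groups, empirical Bayes moderation and a variance trend. The model was tested on simulated data. The members and gene lists were chosen with earlier results of these data known. Named genes are every member and, per list, the 2 largest called falls and rises at 5 days; genes most like a member are the 3 with the highest Pearson r. Promoters and let-7 sequences come from RefSeq (GRCm38.p6). Alternatives were no filter, a floor of 6, other probe sets, median centring, quantile normalisation, array weights, robust or trendless moderation, only the groups compared, a replicate block, leaving out each array, and leaving out both deviating arrays. The list counts, the list genes and Max, Mxd1, Odc1, Ncl, E2f1 and Pcna were added to them after the data were seen.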

Additional observations from a re-analysis of the deposited data

Results flagged for a closer look

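In groups of 4 arrays of one culture, an array was singled out when its gap to the nearest other was larger, as a share of the group's range, than Dixon's critical value. Of 18 groups of arrays tested over the 6 genes 3 had such an array. Chance gives about 1 in 20 for independent arrays drawn from 1 normal distribution. Each group here joins 2 lines and the 6 genes share the same 12 arrays, so the count cannot be set against that rate. Hmga2 on basal 9A1 replicate 1 was at 10.6, with the nearest basal array at 12.3. Hmga2 on day 5 9A1 replicate 2 was at 6.67, with the nearest at 7.86. Igf2bp3 on day 1 9A1 replicate 2 was at 10.01, with the nearest at 10.7. Without these arrays one at a time the fall of Hmga2 at 5 days stayed called, and the difference of Igf2bp3 at 1 day was 0.60. The array left out for Igf2bp3 was flagged as its lowest day 1 value, so this difference had to widen and is no separate support for a rise.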

How the results depend on the processing

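Of the called members, Myc at 1 and at 5 days and Hmga2 at 5 days, each against basal culture, kept their direction and call under every alternative run (Myc has 1 probe set, so the second could not be tried), as did Hmga2 from 1 to 5 days; Mycn at 5 days lost its call with the mean of probe sets (adjusted p = 0.0531) and the second probe set (0.953). The number of members called at 1 day, 1, was 2 with the mean of probe sets or quantile normalisation, 3 with both deviating arrays left out, and 1 to 2 without each array in turn. At 5 days it was 3, and 2 with the second probe set and 2 to 3 without each array. From 1 to 5 days it was 2, but 1 with the second probe set, 3 (with Igf2bp3) with the mean of probe sets, quantile normalisation, array weights or without both deviating arrays, and 2 to 3 without each array. At 5 days within 9A1 it was 2, but 1 with the second probe set, 0 with only the groups compared (Myc and Hmga2, adjusted p = 0.105 and 0.139), 3 (with Mycn) without both deviating arrays, and 1 to 3 without each array in turn. Within 14B3 it was 2, 1 with the second probe set, 3 (with Mycn) with array weights and 1 to 2 without each array. With the mean of probe sets and the second probe set Igf2bp1 was lower at 5 days (-0.56 and -0.65), and with the mean of probe sets Tut7 rose from 1 to 5 days (0.57). For all genes, 829 were higher and 1388 lower at 1 day, 1315 and 1391 with quantile normalisation, 392 and 891 with array weights, 287 and 668 with only the groups compared, 1308 and 2437 with every probe set on its own, and 2815 and 2482 without both deviating arrays; without each array in turn they ran from 256 and 598 (without basal 14B3 replicate 1; the lower count was 596 without day 1 14B3 replicate 2) to 1975 and 2819 (without day 1 9A1 replicate 1). From 1 to 5 days 1848 and 1582 became 2839 and 3852 without those arrays and 3245 and 2510 with every probe set.

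Replicate numbers were not used to pair the samples. Of 15 pairs of groups 5 had a correlation of same-numbered deviations over 0.1, with a range of -0.30 to 0.50. The highest joined day 1 9A1 with day 1 14B3 (0.50), day 1 9A1 with day 5 9A1 (0.38) and day 1 14B3 with day 5 9A1 (0.29). What these groups share was not tested. With the replicate number as a block the count of members called stayed at 1, 3 and 2 in the 3 comparisons of cultures, and Mycn at 5 days had an adjusted p of 0.0490, while the call of Mycn from 1 to 5 days within 14B3 was lost (adjusted p = 0.0561). Values near the floor of 5 are limited by background, and signal over background is not given by the values used here.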
